A study of Mus musculus with 5 samples.

Results

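Striated muscle genes were examined in RNA from the mouse iridocorneal angle, the corner of the eye that holds the trabecular meshwork. The set was a fixed list of 38 genes of the sarcomere, of calcium release and uptake, and of muscle energy supply, looked up by gene symbol in a table of 56941 gene identifiers. All 38 were found, and all 38 were among the 19713 genes with enough reads to be tested. By the fibre type in which each form is best known, 14 were called fast, 8 slow, 2 developmental and 1 extraocular (Myh13). A further 12 were common to fast and slow fibres, and Tnnt2 was set apart as the cardiac and embryonic form of troponin T.

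Bulk RNA sequencing was carried out on 5 pools, 3 from DBA/2J mice and 2 from DBA/2J-Gpnmb+/SjJ mice (Gpnmb+). DBA/2J mice carry mutated alleles of Gpnmb and Tyrp1 and develop pigmentary glaucoma, whereas Gpnmb+ mice have an intact Gpnmb on the same background and share the Tyrp1 mutation. Mice were 12 months old and untreated, and the iris and ciliary body had been cut away before the angle was taken, although remnants of them stayed on the dissected ring. Each pool was described as tissue of 3 mice, although the library names of the Gpnmb+ pools hold 2 animal numbers each. Pools are therefore the replicates here, and every comparison of genotypes is 3 pools against 2.

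Libraries held 43900661 to 49837758 counts. Levels are given as CPM, counts scaled to a library of a standard size and composition, on which 1 read was worth 0.0197 to 0.0233 CPM. Gpnmb RNA itself averaged 47.2 CPM in DBA/2J and 2408 CPM in Gpnmb+, in the direction of the genotype labels. The labels give mice of both sexes, but the Y-linked Ddx3y had 3608, 4168 and 1567 reads in the 3 DBA/2J pools but 0 and 4 reads in the Gpnmb+ pools, while Xist, made from the inactive X chromosome, had 596, 0 and 2417 reads there against 7843 and 9152. Sex and genotype cannot be told apart in these pools. DBA/2J pool 3 stood apart from the other 4 for the genes described here, so results that rest on it are given with and without it.

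In striated muscle, myosin heavy chains with their paired light chains form thick filaments that pull on thin filaments of actin. Troponin C binds calcium released from the sarcoplasmic reticulum through the ryanodine receptor and frees the thin filament for myosin, and a calcium pump then returns the ion to the store. Fast and slow fibres build this machine from different genes for the same part, embryonic and regenerating fibres use developmental heavy chains, and extraocular muscles are known for mixing these forms in single fibres and for adding the very fast heavy chain Myh13.

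The heavy chain genes lie side by side on the plus strand of chromosome 11 (GRCm39) in the order Myh3 (chr11:66969126-66993117), Myh2 (chr11:67061838-67088989), Myh1 (chr11:67089132-67116631), Myh4 (chr11:67128336-67151274), Myh8 (chr11:67167746-67199462) and Myh13 (chr11:67212484-67262413). The slow heavy chain Myh7 lies on chromosome 14. The first 90 coding bases of the 6 neighbours are shown because reads are told apart by such differences. Capitals mark bases that are changed from, or inserted against, Myh1 after alignment.

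Myh1: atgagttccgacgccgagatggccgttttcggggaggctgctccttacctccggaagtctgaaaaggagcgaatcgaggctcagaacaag

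Myh2: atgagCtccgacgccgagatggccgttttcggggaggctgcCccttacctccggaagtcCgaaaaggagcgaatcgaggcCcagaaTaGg

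Myh4: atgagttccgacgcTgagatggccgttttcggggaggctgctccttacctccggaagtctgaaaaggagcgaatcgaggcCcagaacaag

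Myh8: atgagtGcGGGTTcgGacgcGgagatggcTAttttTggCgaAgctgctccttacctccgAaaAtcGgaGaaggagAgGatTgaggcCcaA

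Myh3: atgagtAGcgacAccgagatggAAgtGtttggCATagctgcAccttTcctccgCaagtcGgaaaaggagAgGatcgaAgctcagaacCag

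Myh13: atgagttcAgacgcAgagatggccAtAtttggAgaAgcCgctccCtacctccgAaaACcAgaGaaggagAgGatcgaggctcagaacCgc

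Over this stretch Myh4 had 2 changes from Myh1 and Myh2 had 6, against 18 in Myh13, 19 in Myh3 and 22 in Myh8. For Myh13 and Myh3 these counts include bases of Myh1 that the alignment left out of the other gene. Such missing bases carry no capital, so those lines show fewer capitals than changes. Over the whole coding sequence, identity with Myh1 was 91.1% for Myh2, 90.2% for Myh4, 89.1% for Myh8, 81% for Myh3, 80.4% for Myh13 and 78.2% for Myh7. Windows of 100 bases that occur unchanged in another of the 38 genes made up 7.82% of the Myh1 transcript, 8.2% of Myh2, 6.61% of Myh8, 3.89% of Myh4, 3.45% of Myh13 and 1.15% of Myh3. Only reads that aligned to 1 place were counted, so such shared stretches can lower the counts of these genes.

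Promoters of 3 heavy chain genes whose levels separate the pools are shown from 250 bases before to 50 after the annotated start of the main transcript. They are Myh1 (chr11:67090678-67090977), Myh3 (chr11:66968876-66969175) and Myh13 (chr11:67212234-67212533), all on the plus strand of GRCm39. Capitals mark an E-box (CANNTG), the motif of MyoD-type factors, a MEF2 motif, a CArG box or the letters TATAAA.

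Myh1: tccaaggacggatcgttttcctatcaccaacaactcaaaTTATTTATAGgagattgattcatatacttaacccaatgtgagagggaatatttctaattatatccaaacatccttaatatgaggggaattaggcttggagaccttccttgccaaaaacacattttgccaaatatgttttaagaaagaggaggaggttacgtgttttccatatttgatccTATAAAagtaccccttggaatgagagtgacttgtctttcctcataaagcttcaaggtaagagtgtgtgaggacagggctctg

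Myh3: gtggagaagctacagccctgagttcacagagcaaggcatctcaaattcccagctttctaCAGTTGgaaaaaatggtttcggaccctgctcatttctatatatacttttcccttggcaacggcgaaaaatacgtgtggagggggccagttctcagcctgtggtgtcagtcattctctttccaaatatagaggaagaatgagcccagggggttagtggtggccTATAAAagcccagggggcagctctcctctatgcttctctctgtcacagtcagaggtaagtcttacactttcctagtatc

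Myh13: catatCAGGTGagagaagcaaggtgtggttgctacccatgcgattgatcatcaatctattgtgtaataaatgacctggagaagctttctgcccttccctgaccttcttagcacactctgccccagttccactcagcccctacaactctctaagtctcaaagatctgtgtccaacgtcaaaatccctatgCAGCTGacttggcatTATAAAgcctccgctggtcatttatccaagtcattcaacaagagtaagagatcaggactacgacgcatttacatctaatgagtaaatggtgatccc

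Myh1 held a MEF2 motif and no E-box, Myh3 held 1 E-box, and Myh13 held 2, with TATAAA in each. In Myh1 the MEF2 motif also contains TATAAA on the opposite strand. Searched on both strands, a MEF2 motif was found in 6 of the 38 windows (15.8%), those of Myh1, Myh8, Pvalb, Casq1, Xirp2 and Myoz1, and in 1.78% of the windows of 21770 protein-coding genes. A CArG box was found in 3 (Acta1, Myl3 and Ldb3; 7.89% against 1.54%), TATAAA in 8 (21.1% against 13.2%) and an E-box in 30 (78.9% against 70.6%). These are matches of letters in a window, not bound sites.

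Striated muscle RNA was present in all 5 pools and was highest in DBA/2J pool 3. The 38 genes summed to 616, 691 and 1421 CPM in DBA/2J pools 1, 2 and 3 and to 605 and 446 CPM in Gpnmb+ pools 1 and 2. The Gpnmb+ pools lay below the DBA/2J pools, but DBA/2J pools 1 and 2 were nearer to Gpnmb+ pool 1 than to DBA/2J pool 3. In bulk tissue, fewer muscle cells and less RNA per muscle cell cannot be told apart.

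Among the 38 genes, 29 had their highest CPM in DBA/2J pool 3, where 18.2% of all tested genes had theirs. DBA/2J pool 2 was highest for 4 (Actn3, Mybpc2, Pvalb and Myoz1; 14.4% of all genes), all of them fast-fibre genes. Gpnmb+ pool 1 was highest for 5 (Myh7, Myl2, Myl3, Tnnc1 and Casq2; 19.5% of all genes), all of them slow. No gene of the list peaked in DBA/2J pool 1 or Gpnmb+ pool 2.

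Differences within a genotype were large. All 38 genes were higher in DBA/2J pool 3 than in DBA/2J pool 1 (50.9% of all genes), and 34 were higher than in DBA/2J pool 2 (49.2%). It was at least 2-fold above DBA/2J pool 1 for 30 of the 38 genes (3.29% of all genes) and at least 2-fold above DBA/2J pool 2 for 23 (2.68%). Gpnmb+ pool 1 was at least 2-fold above Gpnmb+ pool 2 for 11 (5.12%). The highest and lowest of the 5 pools differed at least 4-fold for 18 of the 38 genes and for 1569 of the 19713 genes tested.

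**Figure D1:**
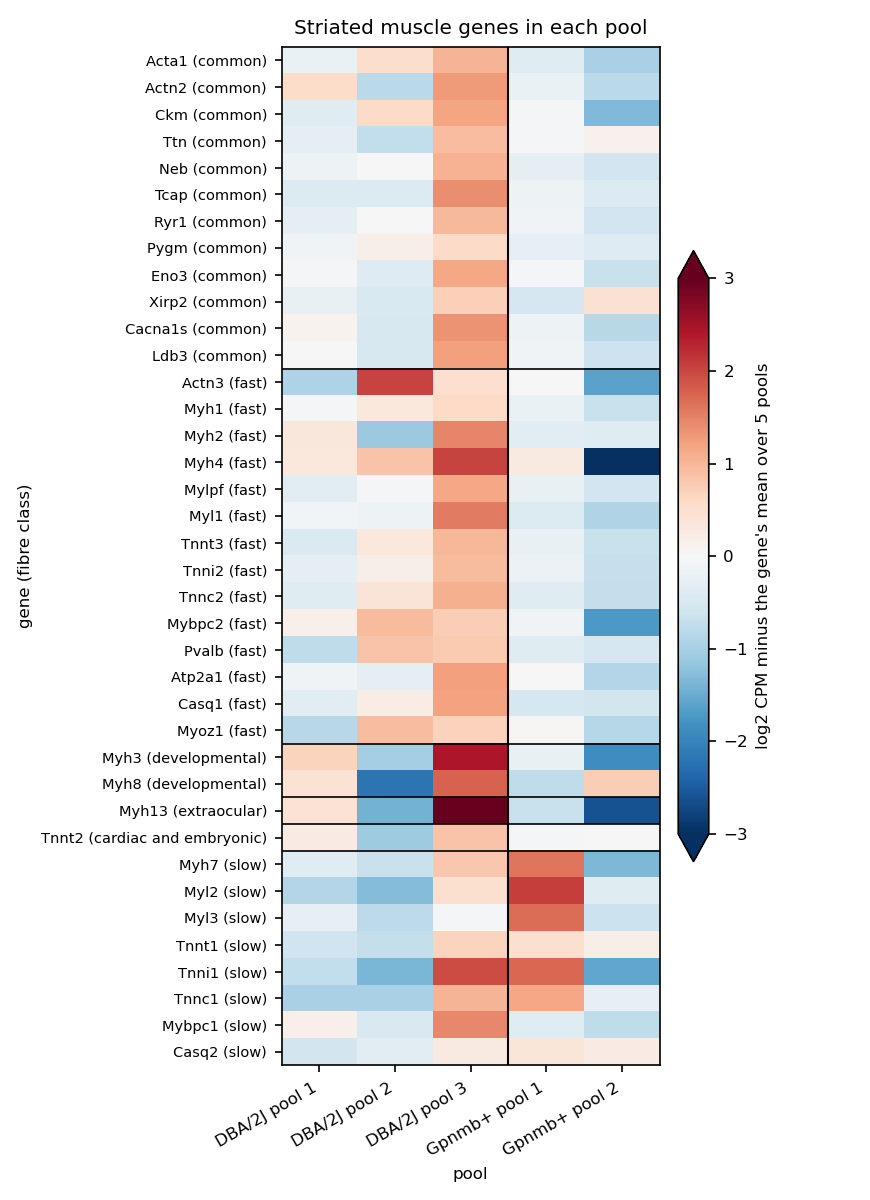
Level of each of the 38 genes (rows, grouped by fibre class) in each pool (columns), as log2 CPM minus the gene's mean over the 5 pools. DBA/2J pool 3 is highest in 29 rows, while 5 of the 8 slow genes are highest in Gpnmb+ pool 1.

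Marker lists of other tissues moved differently between the pools. The 10 smooth muscle markers, among them Myh11 and Acta2, summed to 999 to 1116 CPM in DBA/2J and to 1453 and 1240 CPM in Gpnmb+, and 0 of the 10 had a log2 fold change above 0 (median −0.38). Their lowest sum was in DBA/2J pool 3, although 7 of the 10 were higher there than in DBA/2J pool 1, and 2 higher than in DBA/2J pool 2. Tendon markers (6 genes, Tnmd and Scx included) summed to 1762, 1849 and 1808 CPM in DBA/2J and to 1426 and 1247 CPM in Gpnmb+. The sum was thus higher in every DBA/2J pool, with pool 3 between the other DBA/2J pools. By gene, 3 of the 6 had a log2 fold change above 0 and 3 below, and edgeR called 1 lower (0.294% of all genes).

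The 5 corneal epithelium markers summed to 3854 CPM in DBA/2J pool 3 and to 6400 to 8387 CPM in the other pools. Their keratin Krt12, chosen after its values were seen, had 11298, 4970 and 421 reads in DBA/2J and 86337 and 27106 in Gpnmb+. Over the 5 markers, 2 log2 fold changes were above 0 and 3 below, with a median of −0.13. The 5 ciliary epithelium markers summed to 729, 827 and 933 CPM in DBA/2J against 261 and 153 CPM, and edgeR called 3 of them higher (0.502% of all genes). Like the muscle sum, this list was highest in DBA/2J pool 3 and lowest in Gpnmb+ pool 2, and it spread 6.08-fold over the pools, more than the 3.19-fold of the 38 genes.

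Trabecular meshwork markers (4 of the 5 listed genes, Myoc and Angptl7 included) summed to 1034, 1167 and 1243 CPM in DBA/2J and to 1421 and 1419 CPM in Gpnmb+. The sum was thus lower in every DBA/2J pool. By gene, 3 of the 4 had a log2 fold change below 0, and edgeR called the other 1 higher (0.502% of all genes). Endothelium markers (5 genes) spanned 310 to 429 CPM, macrophage markers (5 genes) 564 to 780 CPM, pigment cell markers (5 genes) 3379 to 4464 CPM and myelinating Schwann cell markers (6 genes) 289 to 352 CPM. Of 6 adipocyte genes, Cidec, Lep and Retn had at most 5 reads in any pool, and the sum of 26.3 to 40.5 CPM came mostly from Fabp4. The share of cornea, tendon or any other tissue in the muscle result was not tested.

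**Figure D2:**
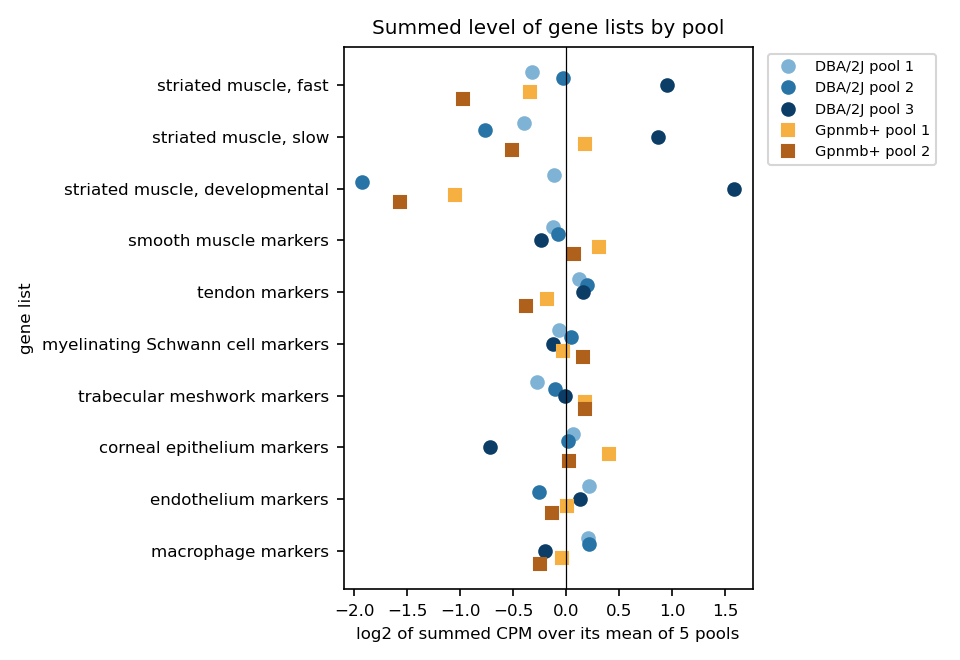
Summed CPM of gene lists in each pool, as log2 of the sum over its mean of 5 pools; circles are DBA/2J pools and squares are Gpnmb+ pools. From lowest to highest pool, the fast, slow and developmental genes spread 3.79-, 3.11- and 11.4-fold and the other lists shown at most 2.18-fold. The ciliary epithelium list, which spread 6.08-fold, is not shown. DBA/2J pool 3 is highest for fast, slow and developmental genes and lowest for corneal epithelium.

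Thin filament genes were highest in DBA/2J pool 3. Acta1, the skeletal muscle actin (chr8:124618501-124623661), had 41.1, 67.4 and 94.8 CPM in DBA/2J and 36.3 and 23.7 CPM in Gpnmb+. Every DBA/2J pool lay above both Gpnmb+ pools, although DBA/2J pool 1 did so by a small margin. The log2 fold change of DBA/2J over Gpnmb+ was 1.17 (SE 0.37), and edgeR's adjusted p was 0.219. DESeq2, run as an alternative, called Acta1 with an adjusted p of 0.0169. Neb, the giant ruler protein of the thin filament, had 15.8, 17.4 and 35.9 CPM against 14.4 and 11.7 CPM and was likewise without overlap (log2 fold change 0.82, SE 0.38, edgeR adjusted p = 0.365).

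Enzymes that supply the sarcomere with energy were also highest in DBA/2J pool 3 and lowest in Gpnmb+ pool 2. Pygm, muscle glycogen phosphorylase, had 93.9, 114 and 149.6 CPM in DBA/2J and 84.5 and 77.3 CPM in Gpnmb+. The groups did not overlap, and the log2 fold change was 0.56 (SE 0.20, edgeR adjusted p = 0.259). Ckm, muscle creatine kinase, had 17.1, 32.5 and 49.9 CPM against 21.1 and 8.81 CPM, so that Gpnmb+ pool 1 fell between DBA/2J pools 1 and 2. Eno3, muscle enolase, had 16.8, 13.3 and 38.6 CPM against 16.9 and 11.0 CPM. Only DBA/2J pool 3 stood clear of the Gpnmb+ pools for Eno3. The opposite-strand gene A930016O22Rik overlaps 15.4% of the Ckm transcript.

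Titin, myosin binding and Z-disc genes did not move as a block. Ttn, which spans the sarcomere from Z-disc to M-line, had 35.2, 25.2 and 79.9 CPM in DBA/2J and 40.6 and 46.0 CPM in Gpnmb+. Apart from DBA/2J pool 3, every DBA/2J pool was below both Gpnmb+ pools, and the log2 fold change of 0.11 (SE 0.47) became −0.52 without that pool. Xirp2, an actin-binding protein of cell junctions in muscle, had 12.1, 10.2 and 22.9 CPM against 9.89 and 19.2 CPM, and there Gpnmb+ pool 2 came next after DBA/2J pool 3.

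Actn3, the fast-fibre α-actinin of the Z-disc, was the gene that set DBA/2J pool 2 apart. It had 1.17, 9.16 and 3.18 CPM in DBA/2J and 2.21 and 0.736 CPM in Gpnmb+, a 12.4-fold range. Its exons overlap those of Ctsf on the opposite strand over 36.1% of the transcript, and the strand of counting is not stated, so part of the Actn3 count may be Ctsf. Actn2, the α-actinin found in all fibres, was instead lowest in DBA/2J pool 2 and Gpnmb+ pool 2 (10.4, 4.05 and 17.1 CPM against 6.13 and 4.07 CPM). Per kilobase, the log2 ratio of Actn3 to Actn2 was 2.06 in DBA/2J pool 2, against −2.26 and −1.54 in DBA/2J pools 1 and 3 and −0.59 and −1.58 in the Gpnmb+ pools. This ratio was chosen after the values were seen.

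Mybpc2, the fast form of myosin binding protein C, had 7.49, 13 and 11.3 CPM in DBA/2J and 6.27 and 2.04 CPM in Gpnmb+. The groups did not overlap (log2 fold change 1.35, SE 0.49, edgeR adjusted p = 0.271). Myoz1, a fast-fibre calcineurin-binding protein of the Z-disc, resembled Actn3, with 1.62, 5.47 and 4.66 CPM against 2.94 and 1.59 CPM. Mybpc1, the slow form of myosin binding protein C, had 20.4, 13.3 and 49.3 CPM against 14.3 and 10.7 CPM. It was the only one of the 8 slow genes with a log2 fold change above 0 (1.15, SE 0.55).

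Tcap, which caps titin at the Z-disc, had 4.18, 4.17 and 14.7 CPM against 5.03 and 4.17 CPM. Ldb3, a Z-disc adaptor, had 7.90, 5.68 and 18.7 CPM against 7.47 and 5.21 CPM. For both genes, DBA/2J pool 3 was high and the other 4 pools were close together.

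The myosin heavy chains showed the widest spread of any group in the list. Myh1, the heavy chain of fast type IIx fibres and the heavy chain with most reads in every pool, had 54.8, 70.4 and 84.9 CPM in DBA/2J and 48.8 and 35.7 CPM in Gpnmb+. The groups did not overlap, with a log2 fold change of 0.73 (SE 0.22) and the smallest edgeR adjusted p of the 38 genes (0.199). DESeq2 called it with an adjusted p of 0.0318. Myh1 shares 12% of its transcript with the opposite-strand gene Myhas, which did not pass the count filter.

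Myh4, the heavy chain of the fastest limb fibres (type IIb), had 16.6, 23.9 and 54.4 CPM in DBA/2J and 15.9 and 1.21 CPM in Gpnmb+. Gpnmb+ pool 2 held 59 reads, far below the other 4 pools (740 to 2425), and without it the log2 fold change fell from 1.88 (SE 1.03) to 0.99. Myh2, the heavy chain of fast type IIa fibres, had 22.7, 8.39 and 49.8 CPM in DBA/2J and 14.6 and 14.0 CPM in Gpnmb+. Here DBA/2J pool 2 was the lowest of all, so the fast heavy chains did not keep 1 order across pools.

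Myh3, the embryonic heavy chain, had 22.0, 6.87 and 74.8 CPM in DBA/2J and 12.0 and 3.80 CPM in Gpnmb+. DBA/2J pool 3 was 19.7-fold above Gpnmb+ pool 2, and DBA/2J pool 2 lay between the Gpnmb+ pools (log2 fold change 2.13, SE 1.04, and 0.87 without DBA/2J pool 3). Myh8, the perinatal heavy chain, had 4.88, 0.792 and 12.3 CPM against 2.11 and 5.99 CPM. The developmental pair therefore parted in Gpnmb+ pool 2, which was lowest for Myh3 and second highest for Myh8.

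Myh13, the extraocular heavy chain, was the lowest of the 38 genes per kilobase and differed most between pools. Its reads numbered 15, 4 and 212 in the DBA/2J pools, against 8 and 2 in the Gpnmb+ pools. Most of the series' reads of Myh13 were therefore in pool 3 of DBA/2J, and the other DBA/2J pools overlapped the Gpnmb+ pools. The log2 fold change of 4.08 (SE 1.84, edgeR adjusted p = 0.355) rested on that pool and was 1.09 without it. Relative to Myh1 per kilobase, the log2 level of Myh13 was −3.84 in DBA/2J pool 3 and −7.03 to −9.46 in the other pools. Myh15, a heavy chain also known from extraocular muscle and named here after its values were seen, had 698, 151 and 2452 reads in DBA/2J against 627 and 140. Its ratio to Myh3 reads stayed between 0.512 and 1.03 in all 5 pools, whereas the ratio of Myh13 to Myh3 was 0.0635 in DBA/2J pool 3 and 0.0108 to 0.0153 elsewhere. The log2 fold change of Myh15 was 1.70 (SE 1.16). Myh7b, a further heavy chain outside the 38 genes and likewise named after its values were seen, went the other way (−0.45, SE 0.58). It had 10, 13 and 33 reads in DBA/2J against 37 and 21.

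Myh7, the heavy chain of slow fibres, had 2.05, 1.65 and 4.62 CPM in DBA/2J and 8.0 and 1.04 CPM in Gpnmb+. Gpnmb+ pool 1 was highest and Gpnmb+ pool 2 lowest, so the log2 fold change of −0.71 (SE 0.83) became 1.41 without Gpnmb+ pool 1. Exons of Mhrt, on the opposite strand, cover 38% of the Myh7 transcript, and their reads cannot be told apart without strand.

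As shares of the reads of the 7 heavy chain genes, Myh1 made up 44.4%, 62.8% and 29.7% in the DBA/2J pools, against 48.0% and 57.8% in the Gpnmb+ pools. Its share was lowest in DBA/2J pool 3, the pool with most Myh1 RNA, where Myh2, Myh3 and Myh4 stood further above their levels in the other DBA/2J pools than Myh1 did. Myh3 made up 26.2% in that pool (95% exact Clopper-Pearson interval 25.5 to 27.0) against 6.13% to 17.8% in the other 4. Per kilobase of transcript, Myh3 held the largest share in DBA/2J pool 3, at 28.4% against 25.8% for Myh1. Myh13 made up 1.67% in that pool (interval 1.45 to 1.90) against 0.0661% to 0.273%, and the intervals of the other pools reached 0.450% at most.

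Other pools differed in other heavy chains. In Gpnmb+ pool 1, Myh7 made up 7.87% (interval 7.15 to 8.64), and in the other 4 pools 1.48% to 1.69%. In Gpnmb+ pool 2, Myh4 made up 1.95% (interval 1.49 to 2.51) against 13.5% to 21.3% elsewhere, and Myh8 made up 9.69% (interval 8.66 to 10.8) against 0.706% to 4.30%. In DBA/2J pool 2, Myh2 made up 7.48% (interval 6.75 to 8.26) against 14.4% to 22.7%. Such intervals cover counting error only. Between genotypes, the mean share of Myh1 was 45.6% ± 16.6 in DBA/2J and 52.9% ± 6.89 in Gpnmb+ (SD, n = 3 and 2), a difference within the spread of the pools. The same held for Myh3 (16.7% ± 10.1 against 8.97% ± 3.99) and for Myh13 (0.674% ± 0.864 against 0.111% ± 0.0630).

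**Figure D3:**
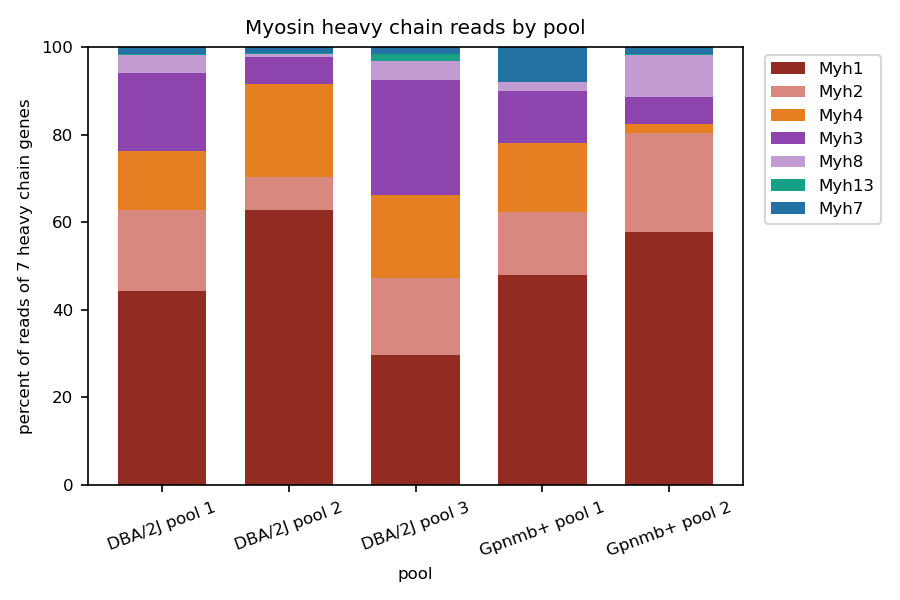
Share of each of 7 myosin heavy chain genes in their summed reads (percent, stacked to 100) in each pool. By reads, Myh1 is the largest share in every pool, from 29.7% in DBA/2J pool 3 to 62.8% in DBA/2J pool 2. Per kilobase of transcript, which is not shown, Myh3 exceeds Myh1 in DBA/2J pool 3 (28.4% against 25.8%). Myh7 is widest in Gpnmb+ pool 1 at 7.87%.

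Among the light chains, the fast forms were abundant and the slow forms near the limit of detection. Mylpf, the fast regulatory light chain, had 18.8, 23.5 and 53.9 CPM in DBA/2J and 20.5 and 16 CPM in Gpnmb+. Myl1, the fast essential light chain, had 18.6, 17.5 and 57.5 CPM against 14.7 and 10.4 CPM. Myl1 was without overlap between the groups (log2 fold change 1.32, SE 0.58, edgeR adjusted p = 0.344), whereas Gpnmb+ pool 1 exceeded DBA/2J pool 1 for Mylpf. Septin1, on the opposite strand, overlaps 33.6% of the Mylpf transcript.

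Myl2, the slow and cardiac regulatory light chain, had 14, 10 and 36 reads in DBA/2J and 123 and 22 reads in Gpnmb+. Myl3, the slow essential light chain, had 6, 4 and 7 reads against 26 and 5. Gpnmb+ pool 1 was highest for both. The log2 fold changes of −1.66 (SE 0.80) and −1.24 (SE 0.74) were the lowest of the 38 genes, and that of Myl2 was 0.011 without Gpnmb+ pool 1, where Myl3 no longer passed the count filter.

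Fast troponins kept the same order in all 5 pools. Tnnt3, the fast troponin T, which ties the complex to tropomyosin, had 28.1, 47.1 and 76.0 CPM in DBA/2J and 32.5 and 23.9 CPM in Gpnmb+. Tnni2, the fast inhibitory subunit, had 12.7, 17.5 and 30.2 CPM against 13.8 and 9.65 CPM, and Tnnc2, the fast calcium-binding subunit, had 11.2, 19.1 and 30.2 CPM against 11.3 and 8.75 CPM. In each, DBA/2J pool 3 was highest, DBA/2J pool 2 next, then Gpnmb+ pool 1, DBA/2J pool 1 and Gpnmb+ pool 2. Of the 3, Tnnc2 came closest to the threshold (log2 fold change 1.009, SE 0.41, edgeR adjusted p = 0.308), but 78.7% of its transcript overlaps exons of Ube2c on the opposite strand, so its count is uncertain.

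Slow troponins were instead high in DBA/2J pool 3 and Gpnmb+ pool 1. Tnnt1, the slow troponin T, had 7.76, 7.13 and 18.4 CPM in DBA/2J and 16.2 and 13.2 CPM in Gpnmb+. Tnni1, the slow inhibitory subunit, had 16, 10 and 104 reads in DBA/2J and 101 and 10 reads in Gpnmb+, and Tnnc1, the slow and cardiac calcium-binding subunit, had 28, 27 and 112 reads against 139 and 51. The log2 fold changes were −0.40 (SE 0.43), −0.17 (SE 1.2) and −0.59 (SE 0.73), each within the spread of the pools. Tnnt2, the cardiac and embryonic troponin T, had 36, 14 and 55 reads against 34 and 33.

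Slow genes were also compared with their fast counterparts within each pool, as a ratio. All 8 pairs compared had a lower mean log2 ratio per kilobase in DBA/2J than in Gpnmb+, and for 6 of them every DBA/2J pool was below both Gpnmb+ pools. These were Tnnc1/Tnnc2, Tnnt1/Tnnt3, Myl3/Myl1, Myl2/Mylpf, Casq2/Casq1 and Myh7/Myh4. Counts of Tnnc2, Mylpf and Myh7 are uncertain because of the opposite-strand genes given above. Myl3 had 4 to 7 reads in every pool but Gpnmb+ pool 1. Ratios of these chosen pairs have no share over all genes to be read against. The direction of the mean ratios largely restates the fold changes of single genes, below 0 for 7 of the 8 slow genes and above 0 for all 14 fast genes. With 3 pools against 2, a two-sided exact permutation test cannot give a p below 0.2, and the pairs come from the same pools, so they are not independent.

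For Tnnt1/Tnnt3 the log2 ratio was −1.18, −2.05 and −1.37 in DBA/2J and −0.34 and −0.18 in Gpnmb+. For Casq2/Casq1 it was −2.21, −2.53 and −2.92 against −1.11 and −1.21. For Casq2/Casq1 the gap between the groups was wider than the spread within either group, and for Tnnt1/Tnnt3 it was about as wide as the spread within DBA/2J. For Myh7/Myh4 it was −3.07, −3.90 and −3.60 against −1.04 and −0.25, where the value of Gpnmb+ pool 2 came from its few Myh4 reads. DBA/2J pool 3, which led in amount of muscle RNA, had the lowest ratio for Myl3/Myl1 and Casq2/Casq1, and DBA/2J pool 2 the lowest for the other 6.

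The remaining pairs overlapped. For Tnni1/Tnni2 the ratio was −5.74, −6.83 and −4.29 in DBA/2J and −3.39 and −6.15 in Gpnmb+. For Mybpc1/Mybpc2 it was 1.30, −0.11 and 1.98 against 1.04 and 2.24. Leaving out 1 pool cannot make a separated pair overlap, so the count of 6 of the 8 pairs could only stay or rise.

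**Figure D4:**
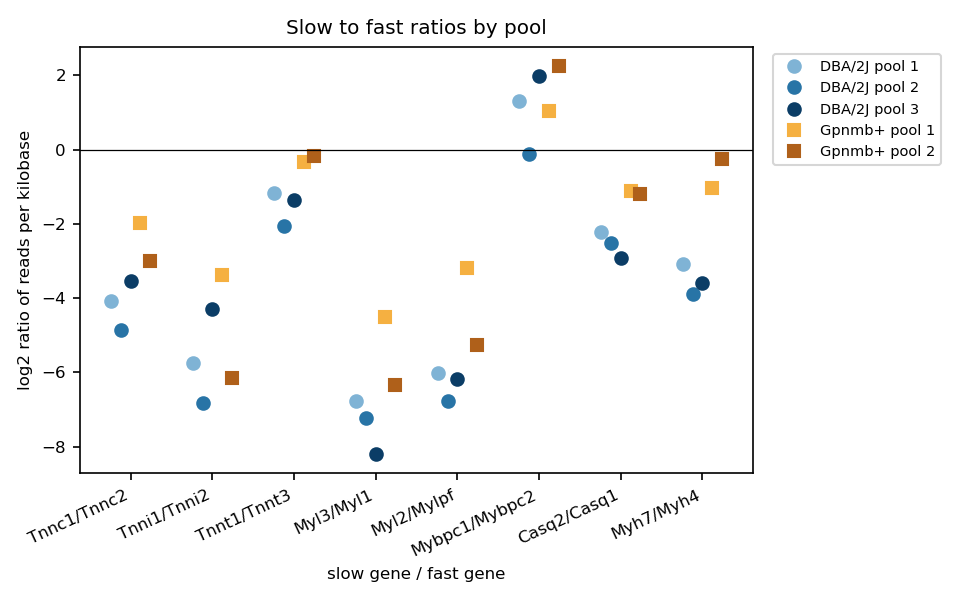
Log2 ratio of reads per kilobase of a slow gene to its fast counterpart, for 8 pairs, in each of the 5 pools; circles are DBA/2J and squares are Gpnmb+. In 6 pairs all 3 circles lie below both squares, and in Tnni1/Tnni2 and Mybpc1/Mybpc2 they overlap.

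Calcium handling genes of fast fibres differed in their order of pools. Atp2a1, the fast-fibre calcium pump SERCA1, had 77.9, 68.4 and 197 CPM in DBA/2J and 84.1 and 45.7 CPM in Gpnmb+. Pool 3 of DBA/2J was again clear of the rest, and the log2 fold change was 0.82 (SE 0.52); Rabep2, on the opposite strand, overlaps 18.4% of the transcript. Casq1, the fast calsequestrin that buffers calcium in the store, had 5.42, 7.99 and 15.8 CPM against 4.79 and 4.72 CPM. For Casq1 the groups did not overlap (log2 fold change 1.03, SE 0.45, edgeR adjusted p = 0.339). Casq2, the slow and cardiac calsequestrin, had 2.99, 3.54 and 5.31 CPM against 5.68 and 5.23 CPM, with DBA/2J pool 3 at the level of the Gpnmb+ pools (log2 fold change −0.47, SE 0.27).

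Ryr1, the calcium release channel, had 11.8, 14.4 and 28.4 CPM in DBA/2J and 13.4 and 9.69 CPM in Gpnmb+. Cacna1s, the voltage sensor that opens it, had 5.33, 3.56 and 12.7 CPM against 4.49 and 2.78 CPM. For both, DBA/2J pool 3 was high and the other 4 pools were mixed. Pvalb, a soluble calcium buffer of the fastest fibres, was high in DBA/2J pools 2 and 3 (4.23, 12.9 and 12.4 CPM against 5.58 and 5.11 CPM), and DBA/2J pool 1 was the lowest of all.

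Levels of different genes were compared per kilobase of transcript. Averaged over the 5 pools, Pygm was highest at 35.5 RPKM (CPM per kilobase), followed by Mylpf (34.7), Acta1 (31.96), Tnnt3 (23.7), Tnni2 (22.9), Atp2a1 (22.9), Tnnc2 (21.4) and Myl1 (20.1). The ranges over pools of these 8 overlap, from 26.4 to 51.2 RPKM for Pygm and from 8.79 to 48.7 RPKM for Myl1. Tnnt1 was the highest slow gene (11.4 RPKM). The 14 fast genes summed to 92.0 to 338 RPKM and the 8 slow genes to 12.1 to 37.3 RPKM. At the foot were Tnnt2 (0.418), Myl3 (0.212) and Myh13 (0.178 RPKM).

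Across all genes, edgeR called 157 of 19713 (0.796%) between the genotypes with an adjusted p up to 0.05 together with a fold change no smaller than 1.5, and none of the 38 (0 higher, where 0.502% of all genes were called, and 0 lower, where 0.294% were). At an unadjusted p under 0.05, 5 of the 38 passed, all higher in DBA/2J (Acta1, Myh1, Tnnc2, Mybpc2 and Pygm), against 15.9% of all genes in either direction and 8.31% higher; 0 passed lower, against 7.6% of all genes. DESeq2 called 2 higher, Acta1 and Myh1, where it called 2.76% of all genes higher. The differences of the other genes did not pass either test, and their standard errors (median 0.53 for the 38 genes, 0.18 for all genes) leave room for sizeable ones.

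Log2 fold changes were above 0 for 31 of the 38 genes, compared with 47.4% of all genes, and their median was 0.80 (−0.02 for all genes). By class, all 14 fast genes (median 0.90) and all 12 common genes (median 0.75) were above 0, whereas 7 of the 8 slow genes were below (median −0.53). The slow genes turned without Gpnmb+ pool 1, when 5 of the 7 still tested were above 0 (median 0.27). The groups did not overlap for 8 genes with DBA/2J higher (Acta1, Neb, Myh1, Myh4, Myl1, Mybpc2, Casq1 and Pygm), where 17.3% of all genes did so, and for 0 with DBA/2J lower (17.2% of all genes).

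Without DBA/2J pool 3 the median of the 38 genes was 0.32, with 26 above 0. The same 8 genes were higher without overlap, which leaving out a pool cannot undo, a count near the 21.8% of all genes. In addition 5 genes (Myl2, Tnnt1, Tnnc1, Ttn and Casq2) were then lower in both remaining DBA/2J pools than in both Gpnmb+ pools, where 23.3% of all genes were. Without Gpnmb+ pool 2, 5 slow genes (Myh7, Myl2, Myl3, Tnnc1 and Casq2) were lower in every DBA/2J pool than in Gpnmb+ pool 1 (29.5% of all genes) and 9 genes were higher (29.2%). Without Gpnmb+ pool 1, where most slow genes peaked, the median was 1.06 and 34 of the 37 genes still tested were above 0; in 25 of the 38 all DBA/2J pools then exceeded Gpnmb+ pool 2 (31.3% of all genes). Without DBA/2J pools 1 or 2, 17 and 16 genes were higher without overlap (22% and 22.7% of all genes).

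**Figure D5:**
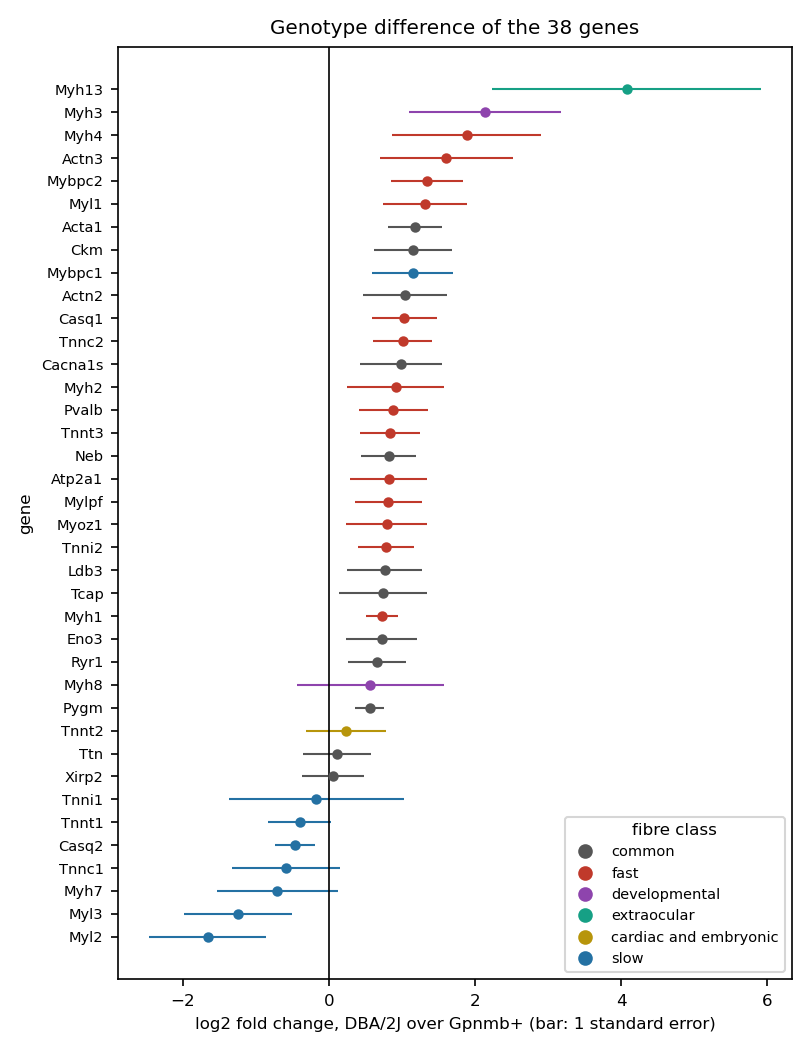
Log2 fold change of DBA/2J over Gpnmb+ for each of the 38 genes (edgeR, 3 pools against 2; bars are 1 standard error), coloured by fibre class. Fast and common genes lie above 0, from 0.05 for Xirp2 to 1.88 for Myh4, and 7 of the 8 slow genes lie below 0, which turns to 5 of 7 above 0 without Gpnmb+ pool 1; none passed the adjusted threshold.

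Muscle genes outside the list were examined in 5 further lists. For reading their counts, edgeR called 0.502% of all genes higher in DBA/2J and 0.294% lower. At an unadjusted edgeR p under 0.05, 8.31% of all genes passed higher and 7.6% lower, and 47.4% had a log2 fold change above 0. Of 37 other sarcomere genes tested, none was called by edgeR (7 higher and 1 lower at an unadjusted p under 0.05; 30 above 0, median 0.50). Ankrd2, a stretch-responsive muscle gene, had the highest fold change (3.73, SE 1.70) from 96, 7 and 7 reads in DBA/2J and 6 and 0 in Gpnmb+, so it rested on DBA/2J pool 1 and not on pool 3. Klhl40, a stabiliser of thin filaments, followed with 1.97 (SE 0.78). The lowest were the cardiac genes Myh6 (−1.42, SE 1.14) and Tnni3 (−1.38, SE 0.56), the first with 38 of its reads in Gpnmb+ pool 1 and at most 16 in any other.

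Other calcium handling genes (15 tested, none called, 12 above 0, median 0.22) ran from Sln, a small inhibitor of the calcium pump (1.49, SE 1.01), and Jsrp1 (1.08, SE 0.47) to Pln, the slow and cardiac pump inhibitor (−0.11, SE 0.61), and Jph2 (−0.51, SE 0.18). Other energy genes (13 tested, none called, 9 above 0, median 0.40) ran from Ampd1, muscle AMP deaminase (1.45, SE 0.84), and Pgam2 (1.11, SE 0.56) to Fabp3, a fatty acid carrier of oxidative muscle (−0.41, SE 0.20), and the cytochrome oxidase subunit Cox8b (−0.76, SE 0.23). At an unadjusted p under 0.05 these lists held 0 and 2 genes higher and 1 and 1 lower.

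In the muscle membrane and neuromuscular junction list, 13 of 16 genes were tested and 10 were above 0 (median 0.38). Chrnb1, the β subunit of the muscle acetylcholine receptor, was called higher in DBA/2J, with 596, 545 and 616 reads against 328 and 244 (log2 fold change 1.22, SE 0.16, edgeR adjusted p = 0.0407). Unlike most of the 38 genes, it was even across the DBA/2J pools. The receptor subunits Chrnd, Chrne and Chrng, the 3 genes not tested, had at most 2 reads in any pool. The chloride channel Clcn1 was at 1.26 (SE 0.52), and the lowest were Scn4a (−0.20, SE 0.21) and Dok7 (−0.48, SE 0.27).

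Of 10 myogenic regulators 8 were tested, none was called (1 higher and 1 lower at an unadjusted p under 0.05), and 6 were above 0 (median 0.95). Myf5, a marker of muscle precursors, had at most 14 reads in any pool (log2 fold change 2.23, SE 1.09), and Mymk, which fuses myoblasts, had 55, 41 and 53 reads in DBA/2J and 17 and 8 in Gpnmb+ (2.16, SE 0.40, edgeR adjusted p = 0.0838). Mymk, like Chrnb1, was even over the DBA/2J pools. Mef2c, which other tissues also express, was at −0.19 (SE 0.10).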

How the data were processed

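RNA of 5 pools was sequenced. Per the labels and the study's methods, the authors trimmed reads with fastp and aligned them with STAR to GRCm39, and what they deposited are whole-number counts of uniquely mapped reads for each gene, not normalized. The strand of counting and tool versions are not given in the sources used here. Gene names, positions and sequences came from GENCODE M39 (GRCm39), which named 56323 of 56941 identifiers; 24930 had no count. RPKM used the length of the canonical transcript.

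The count filter kept genes reaching 10 counts in any 1 pool. edgeR 4.0.16 (R 4.3.3; TMM scaling, quasi-likelihood test with Benjamini-Hochberg adjustment) compared DBA/2J with Gpnmb+ without covariates, after being tested on simulated data. The standard error (SE) is the log2 fold change over the square root of F. Alternatives were DESeq2 1.42.0 (test, and size factors), limma-voom 3.58.1, no filter, filterByExpr, a replicate block, other call rules and leaving out each pool. The labels name pools as biological replicates. Named outside the 38 genes were genes called and the 2 highest and 2 lowest fold changes of each muscle list. A gene that this rule names is not reported here. The 38 genes, lists and slow to fast pairs were chosen with earlier results of these data known. Marker lists are given as summed CPM.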

Additional observations from a re-analysis of the deposited data

How the results depend on the processing

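The 0 calls by edgeR among the 38 genes became 2 by DESeq2 and 4 with an unadjusted p at the same fold minimum, and remained 0 under every other setting run. All genes called were 157, against 360 with no count filter, 927 by DESeq2, 1710 with an unadjusted p, and 1 to 217 with 1 pool left out (6, 1 and 17 without DBA/2J pools 1, 2 and 3, 217 and 2 without Gpnmb+ pools 1 and 2); leaving out a Gpnmb+ pool left 1 pool there, assumed to vary like the others. The median log2 fold change of 0.80 ranged from 0.32 to 1.06 with 1 pool left out. Its direction, and that of the Myh3 and Myh13 share differences, held throughout, while the Myh1 share difference of −7.28 percentage points ranged from −15.9 to 0.67. Genes with every DBA/2J pool above both Gpnmb+ pools numbered 8, and 8 to 25 with 1 pool left out. There were 25 without Gpnmb+ pool 1, and 17 and 16 without DBA/2J pools 1 and 2. Slow to fast pairs without overlap then numbered 6 to 7. Leaving out a pool cannot lower either count, so their lower ends were fixed in advance. These counts were added after seeing the data.

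Replicate numbers occur in both genotypes for pools 1 and 2 only, whose deviations correlated with r = 0.279 and 0.254 over 19713 genes. Between pools 1 and 2 of unlike number, r was −0.279 and −0.254. Deviations of 2 Gpnmb+ pools from their mean mirror each other, so these values cannot decide whether the pools were paired. The main fit did not treat them as pairs. With a replicate block 220 genes were called, 0 of the 38, and the median was 0.33. Fold changes that turned direction with the block were those of Myh2 (−0.037), Myh8 (−0.71), Tnnt2 (−0.32), Ttn (−0.54), Tcap (−0.13) and Xirp2 (−0.31), and Ttn also with limma-voom (−0.059). Without DBA/2J pool 3 they were Myh8 (−0.51), Tnnt2 (−0.24), Ttn (−0.52), Tcap (−0.14) and Xirp2 (−0.38), and without Gpnmb+ pool 1 Myh7 (1.41), Myl2 (0.011), Tnni1 (2.24), Tnnc1 (0.27) and Xirp2 (−0.35). Tnni1 also turned without DBA/2J pool 1 (0.22) or pool 2 (0.29). With 1 pool left out, these genes ranged from −1.53 to 1.41 (Myh7), −0.51 to 1.50 (Myh8), −2.41 to 0.011 (Myl2), −0.24 to 0.60 (Tnnt2), −1.88 to 2.24 (Tnni1), −1.58 to 0.27 (Tnnc1), −0.52 to 0.41 (Ttn), −0.14 to 1.04 (Tcap) and −0.38 to 0.61 (Xirp2). The cause was not tested. Depth limits Myh13, Myl2, Myl3 and Tnni1 most, with 10 or fewer reads in at least 1 pool each.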
